A study of Mus musculus with 6 samples.

Results

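The genes of the G1 decision, 10 in all, were followed in mouse neural stem cells (NSCs) as Ccnd1, Ccnd2 and Ccnd3 (D-type cyclins), Cdkn1a and Cdkn1b (CIP/KIP inhibitors), Cdkn2a, Cdkn2b and Cdkn2c (INK4 inhibitors), Trp53 (p53) and Mdm2. They were chosen by name, and all 10 were found among the 53110 genes of the deposited table. The NSCs were primary cells of the embryonic cortex, kept attached to Matrigel with EGF and bFGF at 21% oxygen. They were either WT or heterozygous for a Setd5 mutation made with CRISPR-Cas9 (Setd5+/-, the mutant), and RNA-seq was labelled as 3 samples per genotype. Setd5 codes for a chromatin-associated SET-domain protein.

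The 3 samples of a genotype differed by no more than the sampling of reads. Chi-square per degree of freedom of their read pairs lay between 0.961 and 0.986 in the 6 pairs of samples within a genotype, against 34.9 to 35 in the 9 pairs between genotypes. Each genotype was therefore counted as 1 library (n = 1), no p-value is given for a difference between genotypes, and no difference below has a replicate check. The column names of the mutant samples carry a single clone, A3, which is not among the mutant clones that the text of the study names, so that the genotype cannot be told apart from the clone, the library, its index or its lane. Each WT sample held between 9995980 and 10004948 reads on genes and each Setd5+/- sample between 7143309 and 7146147. Values are normalized counts, that is reads divided by the size factor of the sample, and every interval is a 95% interval that covers counting error only. Where a pair of values is given for a gene, WT comes first, and the parentheses after it hold the log2 fold change (Setd5+/- minus WT) and its interval. Positions are on GRCm38. Of 16266 genes whose mean reached 10 normalized counts, 35.2% lay at or past 1.5-fold in either direction, 15.5% lower and 19.7% higher in mutant NSCs, and 19.9% did so with their whole interval. The median log2 fold change of these genes was -0.02, with quartiles of -0.38 and 0.43. The 1044 tested genes of chromosome 1 had a median of 0.53, and none of the 10 genes lies there.

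Setd5 itself had 2498, 2749 and 2780 normalized counts across the WT samples against 2151, 1990 and 2055 across the mutant samples. The mutant level changed by -22.8% (log2 fold change -0.37, -0.44 to -0.31). The NSC identity was checked on 10 markers, all above the minimum. Past 1.5-fold, 1 (10%) was higher and 3 (30%) were lower, against 19.7% and 15.5% of all tested genes. The 10 markers summed to 74362 to 74521 normalized counts in WT and 53715 to 54414 in the mutant. Sox2 had 3119 normalized counts in WT against 2732 in mutant NSCs and Nes, which codes for nestin, had 2378 and 1951. Fabp7, a radial glia lipid-binding protein and the most abundant marker, had 36015 and 11490. The other lower ones past 1.5-fold, named after their values were seen, were Hes1 with 476 and 224 and Prom1 with 24.6 and 2.38. The higher one was Vim with 9095 and 13822 (0.60, 0.57 to 0.63). Under 1.5-fold, Hes5 with 1222 and 1650 and Pax6 with 402 and 530 were higher. Sox2, Nes and Msi1 were lower, and Slc1a3 had 20983 and 21117. Of 8 oligodendrocyte lineage markers 7 passed the minimum (1 higher, 4 lower), with a summed level of 40997 to 41788 across the WT samples against 23688 to 24533 across the mutant samples, led by Olig1 with 28867 and 15491. All 6 astrocyte markers passed (3 higher, 2 lower) and summed to 7091 to 7212 and 3905 to 4190, led by Slc1a2 with 4678 and 1225, although the median log2 fold change of this list was 0.49. The higher ones, named after their values were seen, were Gfap with 17.1 and 263 (3.87, 3.37 to 4.36), Aqp4 with 57.7 and 187 (1.68, 1.35 to 2.00) and S100b with 339 and 737 (2.17-fold higher). The lower ones were Slc1a2 (-1.93, -2.01 to -1.86) and Aldh1l1 with 380 and 147 (-1.36, -1.59 to -1.13). Gja1, with 1666 and 1507 (-0.14, -0.23 to -0.06), was under 1.5-fold. Of 9 neuronal markers 5 passed (0 higher, 3 lower) and all 9 summed to 10245 to 10609 and 12481 to 12594, nearly all of it Map2, with 9983 and 12445, while Neurod1 had 0 reads in both libraries. Of the 9 mesenchymal markers, 5 endothelial markers and 6 microglial markers, a single gene of each list passed the minimum (Prrx1, Kdr and Csf1r). These lists summed to 387 to 405 and 571 to 670, to 9.11 to 16.5 and 13.1 to 26.2, and to 78.6 to 119 and 51.2 to 70.3, and Lum, Twist1, Cx3cr1 and Itgam were at 0 in both. The part of these shifts in the results below was not tested.

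In G1 a cell either commits to another division or leaves the cycle. D-type cyclins, induced by growth factors, bind CDK4 or CDK6 and start the phosphorylation of RB, which releases E2F factors and with them cyclin E, CDK2 and DNA replication. INK4 proteins bind CDK4 and CDK6 and keep the cyclins away, CIP/KIP proteins block cyclin-CDK2 complexes, and p53 drives the CIP/KIP gene Cdkn1a while its target MDM2 marks p53 for degradation. In neural progenitors the length of G1 is linked to the choice between self-renewal and differentiation, and Cdkn2a is a classic brake on their long-term expansion in culture.

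The genes with the opposite changes described below sit partly side by side, so the 250 bases before their start sites are shown. RefSeq promoter entries on GRCm38.p6 were found for 8 of the 10 genes, at 12 start sites, and none for Ccnd1 or Ccnd2. Cdkn2a has 2 starts, an upstream one for the transcript of p19ARF and a downstream one for p16INK4a, and Cdkn2b, which codes for p15INK4b, is its neighbour. Cdkn1b, which codes for p27KIP1, is shown as the inhibitor with the largest increase. Capitals mark a GC box (GGGCGG, the letters bound by SP1-type factors) or an E2F-type sequence (TTCCCGC) on either strand. The windows were chr4:89294620-89294869 and chr4:89282193-89282442 (both minus strand) for Cdkn2a, chr4:89311033-89311282 (minus strand) for Cdkn2b and chr6:134920151-134920400 (plus strand) for Cdkn1b.
Cdkn2a, upstream start: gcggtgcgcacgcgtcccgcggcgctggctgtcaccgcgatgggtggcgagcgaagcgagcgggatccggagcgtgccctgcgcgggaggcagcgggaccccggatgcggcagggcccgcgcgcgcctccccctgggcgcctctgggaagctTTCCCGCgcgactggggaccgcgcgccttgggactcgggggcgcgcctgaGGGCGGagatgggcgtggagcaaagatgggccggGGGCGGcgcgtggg
Cdkn2a, downstream start: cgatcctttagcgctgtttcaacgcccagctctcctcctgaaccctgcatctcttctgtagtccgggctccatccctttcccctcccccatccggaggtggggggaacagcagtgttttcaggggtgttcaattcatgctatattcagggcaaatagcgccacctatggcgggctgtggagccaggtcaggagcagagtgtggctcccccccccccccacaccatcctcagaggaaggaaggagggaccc
Cdkn2b: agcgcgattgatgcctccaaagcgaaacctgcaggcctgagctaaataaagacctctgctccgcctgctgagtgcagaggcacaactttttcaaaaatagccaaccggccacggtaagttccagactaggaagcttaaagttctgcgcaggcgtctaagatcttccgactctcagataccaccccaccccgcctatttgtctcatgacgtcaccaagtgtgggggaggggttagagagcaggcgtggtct
Cdkn1b: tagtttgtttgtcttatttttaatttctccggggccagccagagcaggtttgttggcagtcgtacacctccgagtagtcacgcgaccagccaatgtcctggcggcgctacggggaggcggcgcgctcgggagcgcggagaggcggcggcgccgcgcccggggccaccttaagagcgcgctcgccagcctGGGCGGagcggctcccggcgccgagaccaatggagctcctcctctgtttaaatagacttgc

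The upstream Cdkn2a window held 2 GC boxes, the nearer one ending 8 bases before the start, and 1 E2F-type sequence ending 91 bases before it. The downstream Cdkn2a window and the Cdkn2b window held neither, and the Cdkn1b window held 1 GC box. Over all 12 windows, which belong to 8 of the 10 genes, 7 held a GC box and 2 held the E2F-type sequence. Ccnd1 and Ccnd2 had no window and were not searched. The other window with the E2F-type sequence was one of Cdkn2c, which also held 3 GC boxes. A link between these sequences and the changes in expression was not tested. Over 32536 different windows of this length, 33% held a GC box and 3.84% the E2F-type sequence, in either orientation. The other E2F-type spelling searched, TTGGCGC (1.98% of all windows), and the E-box CACGTG (6.04%) were in none of the 12 windows. The counts were made per gene, so the transcripts of p16INK4a and p19ARF were not separated.

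Past 1.5-fold, 4 of the 10 genes were lower in mutant NSCs (the 3 D-type cyclins and Cdkn2a), where 15.5% of all tested genes were, and 2 were higher (Cdkn1b and Cdkn2b), where 19.7% were. The other 4, Cdkn1a, Cdkn2c, Trp53 and Mdm2, stayed under 1.5-fold. All 10 passed the minimum, and their median log2 fold change was -0.11. The samples of the genotypes did not overlap for any of the 10 genes, nor for 65.3% of all tested genes. Since the samples of a genotype are parts of 1 library, this non-overlap covers counting error only and says nothing of cultures.

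**Figure D1:**
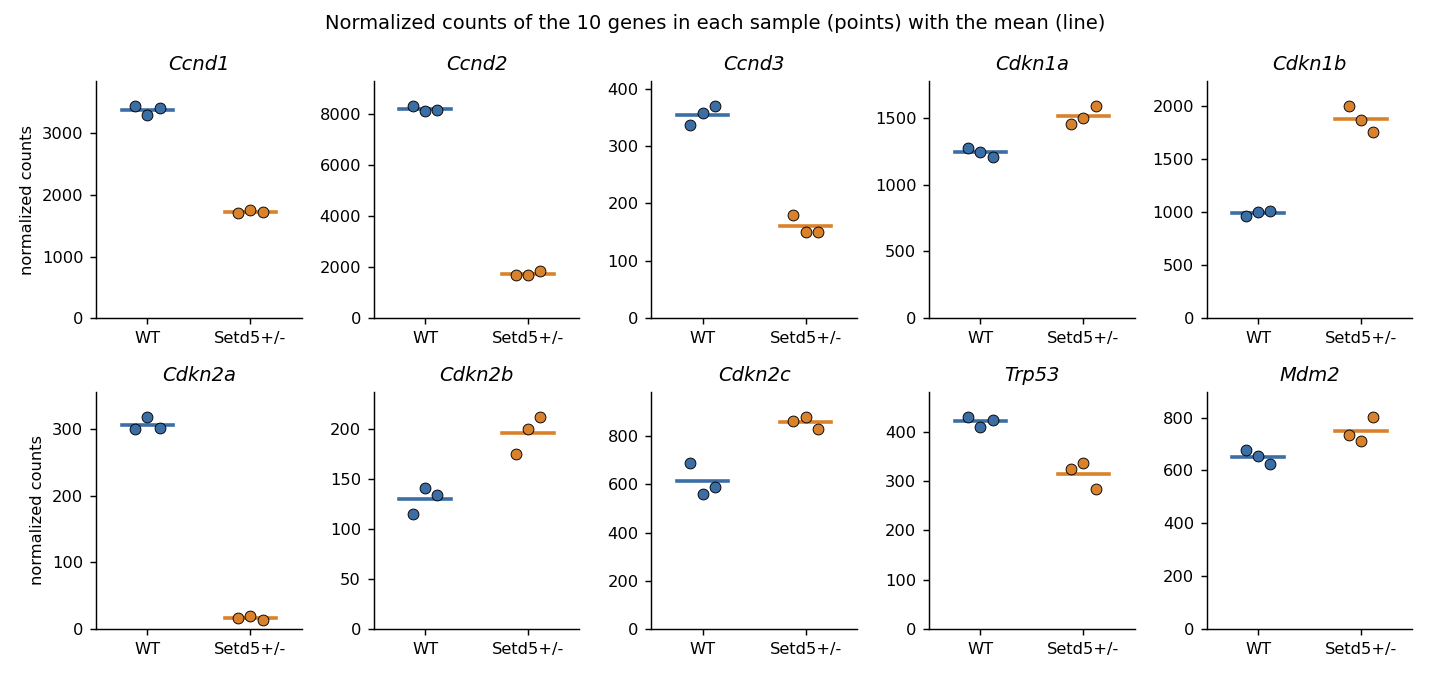
Normalized counts (y axis, from 0) of the 10 genes in the 3 WT and the 3 Setd5+/- samples, as points, with the mean as a line. Ccnd2 falls from a mean of 8181 to 1746 and Cdkn2a from 306 to 16.3, while Cdkn1b goes from 991 to 1874, and in each panel the points of the genotypes are apart.

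All 3 D-type cyclins were lower in mutant NSCs, and Ccnd2 most of all. Ccnd2 (ENSMUSG00000000184, chromosome 6, 127125162 to 127152193) is a D cyclin of cortical progenitors. It had 8287, 8100 and 8155 normalized counts across the WT samples against 1697, 1677 and 1865 across the mutant samples. The mutant samples all lay far below the lowest WT sample, and the log2 fold change was -2.23 (-2.29 to -2.16), or 4.68-fold lower. Of the 16266 tested genes, 244 had a more negative value. Ccnd1 (ENSMUSG00000070348, chromosome 7, 144929931 to 144939925), the main cyclin of growth factor signalling, had 3436, 3290 and 3410 in WT against 1713, 1753 and 1726 in mutant NSCs. The 3 samples of each genotype were tight, and the level was 1.95-fold lower (log2 fold change -0.96, -1.03 to -0.90). Ccnd3 (ENSMUSG00000034165, chromosome 17, 47505051 to 47599691) was the least expressed D cyclin per kb of exon, with 337, 358 and 369 in WT against 180, 151 and 150 in mutant NSCs. Its log2 fold change was -1.14 (-1.36 to -0.92), or 2.2-fold lower.

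The D cyclins did not go down in proportion. The log2 fold change of Ccnd2 was lower than that of Ccnd1 by 1.26 (difference -1.26, -1.36 to -1.17) and lower than that of Ccnd3 by 1.09 (difference -1.09, -1.32 to -0.86). Between Ccnd3 and Ccnd1 the difference was -0.17, with an interval from -0.41 to 0.06 that includes 0. Per kb of exon, the D cyclins summed to 1627 normalized counts in WT against 571 in mutant NSCs, a 2.85-fold lower level. Ccnd2 held 53.4% of this sum in WT (53.1 to 53.8% over the samples) and 32.5% in mutant NSCs (31.4 to 34.1%). Ccnd1 held 44.1% (43.7 to 44.3%) and 64.3% (63 to 65.6%), so that Ccnd2 was the leading D cyclin per kb in the WT library and Ccnd1 in the mutant library. These shares depend on the exon lengths, taken as unions over all annotated transcripts. Without division by length, the ratio of Ccnd2 to Ccnd1 was 2.42 in WT and 1.01 in mutant NSCs.

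**Figure D2:**
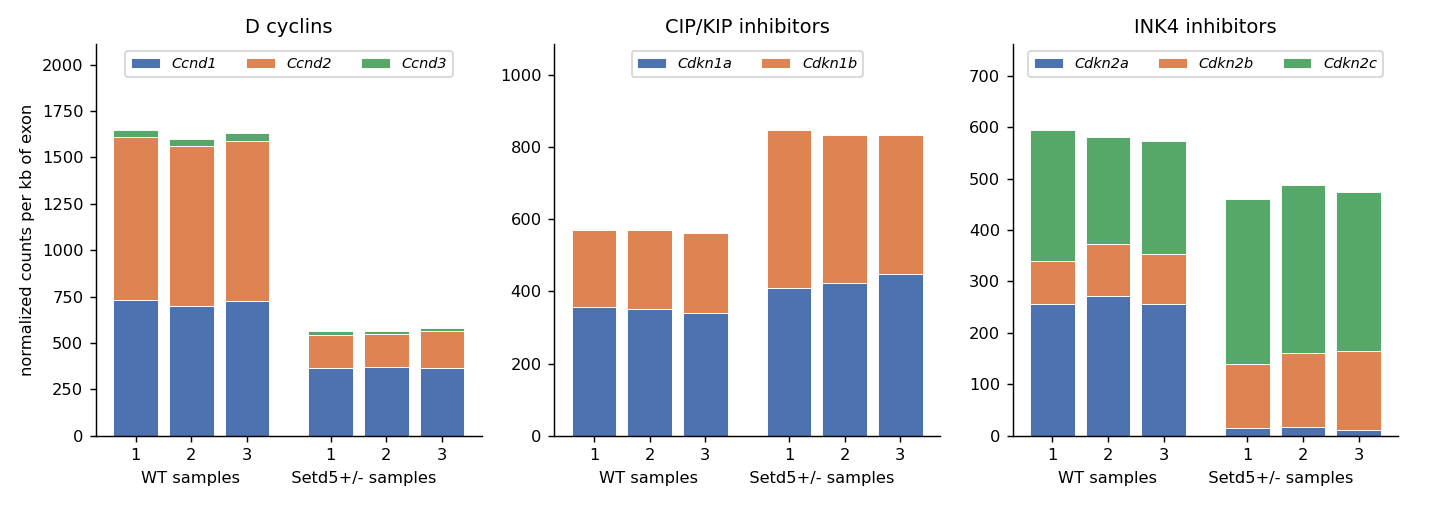
Normalized counts per kb of exon (y axis, from 0), stacked by gene, in each WT and Setd5+/- sample. Shown are the D cyclins and those CIP/KIP and INK4 inhibitors that are among the 10 genes. The D cyclin bars shrink from a mean of 1627 to 571 mainly by the Ccnd2 segment, the CIP/KIP bars grow from 567 to 838, and the INK4 bars change from 583 to 474 as the Cdkn2a segment nearly disappears.

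Each D cyclin shares exon sequence with a gene on the opposite strand, and the library kit does not mark strand, so their reads cannot be told apart where they overlap. Oraov1 (annotated as LTO1) shares 1100 bp with Ccnd1, or 23.4% of the exonic length of Ccnd1, and had 1353 normalized counts in WT against 708 in mutant NSCs (log2 fold change -0.93, -1.04 to -0.82). The antisense gene Gm43126 shares 372 bp (3.95%) with Ccnd2 and had 917 and 87.8 (log2 fold change -3.37, -3.64 to -3.10), a larger decrease than that of Ccnd2 itself. A further antisense gene at Ccnd2, 9330179D12Rik (368 bp), had means of 9.11 and 1.59, under the minimum. Bysl, a ribosome biogenesis gene, shares 361 bp (4.11%) with Ccnd3 and had 417 and 218 (log2 fold change -0.93, -1.12 to -0.73). The processed pseudogene Ccnd3-ps is 96.3% identical to Ccnd3 over 881 bp and had 125 and 63.9, so the split of reads between Ccnd3 and this copy is uncertain.

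The partners of the D cyclins were taken from a list of 12 genes of cyclins, CDKs and their regulators, all above the minimum. Of these, 2 (16.7%) were higher and 4 (33.3%) lower past 1.5-fold, against 19.7% and 15.5% of all tested genes. The median log2 fold change was -0.13. The lower ones were Ccne1, Ccne2 and the regulators Skp2 and Cdc25a, the last with 359 and 229 (-0.65, -0.84 to -0.45). Cdk6, a kinase partner of the D cyclins, had 144, 127 and 149 normalized counts across the WT samples against 1281, 1449 and 1373 across the mutant samples. All mutant samples were far above WT, and the log2 fold change was 3.28 (3.09 to 3.46), or 9.69-fold higher. Cdk4, the other kinase partner, had 4175 and 3600 (log2 fold change -0.21, -0.27 to -0.16), and Cdk2 had 486 and 472 (-0.04, -0.19 to 0.11). Cdk7, a kinase of the CDK-activating complex, had 101 and 154 (0.61, 0.33 to 0.90). The E cyclins, which follow the D cyclins, were both lower. Ccne2 had 175, 179 and 171 in WT against 53.6, 48.8 and 56 in mutant NSCs (log2 fold change -1.71, -2.08 to -1.34). Ccne1 had 131, 135 and 150 against 72.7, 50 and 65.5 (-1.13, -1.48 to -0.78). Skp2, the ubiquitin ligase subunit that targets p27KIP1, had 351 and 191 (-0.88, -1.09 to -0.67).

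Among 13 RB and E2F genes, all above the minimum, 1 (7.69%) was higher and 3 (23.1%) were lower. Of all tested genes, 19.7% were higher and 15.5% lower. The median log2 fold change of the 13 genes was -0.37. E2f1, an activating E2F, had 151, 153 and 132 normalized counts in WT against 73.9, 70.3 and 83.4 in mutant NSCs, and its log2 fold change was -0.93 (-1.26 to -0.60). Their dimerisation partners moved apart. Tfdp1 had 411 and 242 (-0.76, -0.95 to -0.57), whereas Tfdp2 had 518 and 951 (0.88, 0.76 to 1.00). Rb1 had 800 and 621 (log2 fold change -0.37, -0.49 to -0.24), under 1.5-fold.

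Genes of cycling cells were read beside these values. Of 10 proliferation markers, all above the minimum, 0 were higher and 1 (10%) was lower past 1.5-fold, against 19.7% and 15.5% of all tested genes. The median log2 fold change of the 10 markers was 0.08. Their summed level was 6797 to 6960 normalized counts across the WT samples against 7946 to 8035 across the mutant samples. Top2a, the most abundant of them, had 1848 and 2653 (0.52, 0.45 to 0.59). The single lower one was the replication clamp Pcna, with 101 and 29.4, named after its value was seen. In RNA of whole cultures, fewer cells in a phase and less RNA per cell cannot be told apart.

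The CIP/KIP inhibitors were both at a higher level in mutant NSCs, with Cdkn1b past 1.5-fold and Cdkn1a under it. Cdkn1b (ENSMUSG00000003031, chromosome 6, 134920401 to 134925513), which restrains cyclin E-CDK2 and holds cells in quiescence, had 963, 998 and 1013 normalized counts in WT against 1996, 1868 and 1757 in mutant NSCs. The lowest mutant sample lay far above the highest WT sample, and the log2 fold change was 0.92 (0.83 to 1.01), or 1.89-fold higher. Cdkn1a (ENSMUSG00000023067, chromosome 17, 29090976 to 29100727), which codes for p21 and is a classic p53 target, had 1274, 1248 and 1206 in WT against 1452, 1502 and 1587 in mutant NSCs. The samples did not overlap, but the log2 fold change was only 0.28 (0.20 to 0.37). The log2 fold change of Cdkn1b exceeded that of Cdkn1a by 0.63 (0.51 to 0.76). Per kb of exon, the pair summed to 567 in WT against 838 in mutant NSCs, 1.48-fold higher, and the share of Cdkn1b in the sum was 38.4% (37.1 to 39.6%) and 49.1% (46.4 to 51.8%). The annotated gene AC167363.2, which overlaps Cdkn1a by 273 bp on the opposite strand, had no value in the table. The remaining CIP/KIP gene, Cdkn1c, was low, with 18.5 and 22.2 normalized counts (log2 fold change 0.25, -0.43 to 0.93).

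The INK4 genes did not move together, and Cdkn2a showed the largest change of the 10 genes. Cdkn2a (ENSMUSG00000044303, chromosome 4, 89274471 to 89294653) had 300, 318 and 301 normalized counts across the WT samples against 16.7, 19.1 and 13.1 across the mutant samples, from 1109 and 41 reads. The mutant level was low in every sample but not zero. The log2 fold change was -4.15 (-4.74 to -3.56), or 17.8-fold lower, and 61 of the 16266 tested genes had a more negative value. Cdkn2b (ENSMUSG00000073802, chromosome 4, 89306299 to 89311039), which lies next to it on the same strand, had 115, 141 and 134 in WT against 175, 200 and 212 in mutant NSCs. Its log2 fold change of 0.59 (0.33 to 0.84) sat on the 1.5-fold limit, and it passed under it without WT sample 1 (0.51) and without Setd5+/- sample 2 (0.57) or 3 (0.53). The log2 fold changes of Cdkn2a and Cdkn2b differed by -4.74 (-5.38 to -4.10). Cdkn2c (ENSMUSG00000028551, chromosome 4, 109660876 to 109667189), which codes for p18INK4c and lies far away on the same chromosome, had 687, 558 and 591 in WT against 861, 879 and 831 in mutant NSCs (log2 fold change 0.49, 0.37 to 0.60). Between Cdkn2b and Cdkn2c the difference was 0.10 (-0.18 to 0.38), an interval that includes 0. The remaining INK4 gene, Cdkn2d, had 237 and 208 normalized counts (log2 fold change -0.18, -0.40 to 0.03).

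The shares of the 3 INK4 genes followed here differed between the libraries. Cdkn2d, with 237 and 208 normalized counts, was left out of this sum, and reads of Cdkn2a include those of the p19ARF transcript. As for the D cyclins, the shares depend on the exon lengths used. Per kb of exon, the 3 genes summed to 583 in WT against 474 in mutant NSCs. Cdkn2a held 44.9% of the sum in WT (43.1 to 46.7%) and 2.93% in mutant NSCs (2.36 to 3.34%). Cdkn2c held 39.1% (35.8 to 43%) and 67.4% (65.4 to 69.5%), and Cdkn2b 16.1% (13.9 to 17.4%) and 29.7% (27.4 to 32.2%). Cdkn2a and Cdkn2c were near each other per kb in WT, with 256 for both in WT sample 1, and Cdkn2c led in the mutant library.

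**Figure D3:**
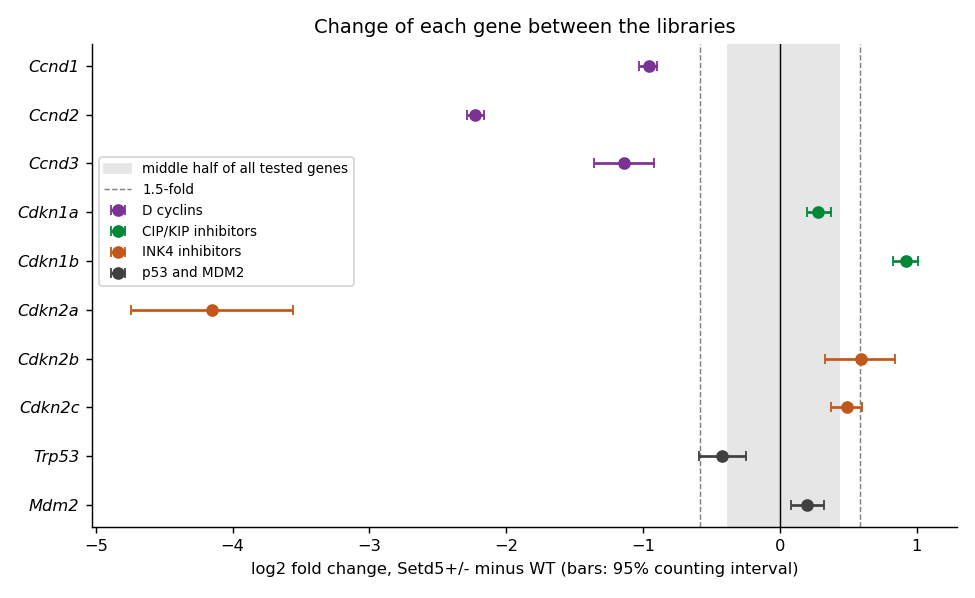
Log2 fold change (x axis, Setd5+/- minus WT) of the 10 genes with 95% counting intervals, coloured by family, beside the middle range of all tested genes (grey, from -0.38 to 0.43) and the 1.5-fold limits (dashed). Cdkn2a at -4.15 and the D cyclins lie left of the lower limit, and Cdkn1b at 0.92 lies right of the upper one.

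No other protein-coding gene with reads among the nearest on each side of Cdkn2a came near its decrease. Non-coding genes there were not looked at. On its lower-coordinate side Mtap, an enzyme of methionine salvage whose lower end lies at -137.3 kb from that of Cdkn2a, had 399 normalized counts in WT against 332 in mutant NSCs (log2 fold change -0.26, -0.43 to -0.09). On the other side, beyond Cdkn2b, the transcription factor gene Dmrta1 (405 kb) had 43.6 and 70.3 (0.68, 0.25 to 1.1). Elavl2, a neuronal RNA-binding protein gene 1976 kb away, had 104 and 37.3 (-1.45, -1.89 to -1.01). Ifna1, Ifne and Zfp352, which also lie among the 3 nearest coding genes on each side, had 0 reads in both libraries. The 991 tested genes of chromosome 4 had a median log2 fold change of 0.02.

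**Figure D4:**
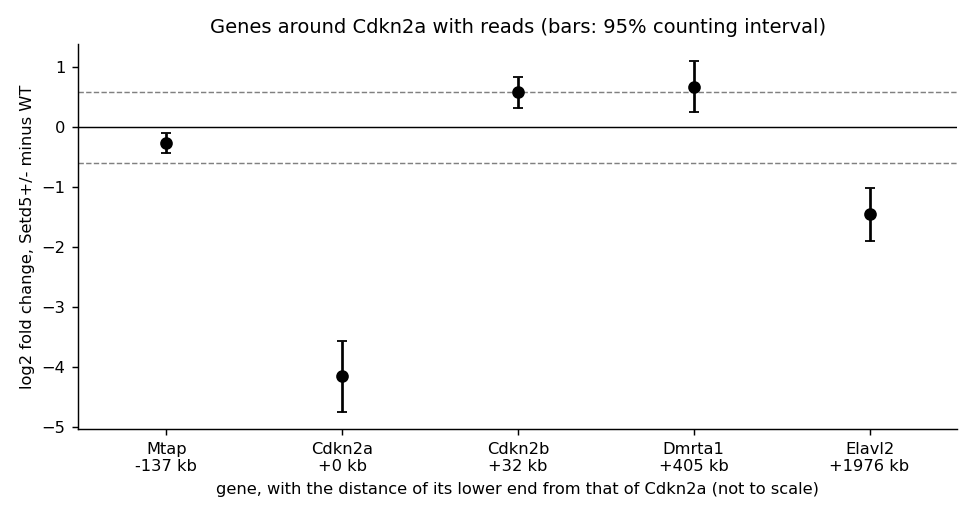
Log2 fold change (y axis, Setd5+/- minus WT) with 95% counting intervals of the protein-coding genes with reads around Cdkn2a, in chromosome order and not to scale, with the distance of each lower end from that of Cdkn2a in kb. Cdkn2a stands at -4.15 between Mtap at -0.26 and Cdkn2b at 0.59.

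Neither Trp53 nor Mdm2 reached 1.5-fold. Trp53 (ENSMUSG00000059552, chromosome 11, 69580359 to 69591873) had 430, 410 and 425 normalized counts across the WT samples against 325, 336 and 285 across the mutant samples (log2 fold change -0.42, -0.59 to -0.25), or -25.1%. The mutant samples were all lower than WT, and the lower end of the interval lay close to the 1.5-fold limit. The processed pseudogene Trp53-ps, 97.7% identical over 353 bp, had 320 and 239 (log2 fold change -0.42, -0.62 to -0.23), so that reads of the gene and of the copy may be split between them. Mdm2 (ENSMUSG00000020184, chromosome 10, 117688875 to 117710758), the ubiquitin ligase of p53, had 678, 653 and 625 in WT against 734, 711 and 802 in mutant NSCs. Its log2 fold change was 0.20 (0.08 to 0.32), a small difference in the direction opposite to Trp53, and the log2 fold changes of Mdm2 and Trp53 differed by 0.62 (0.41 to 0.83). Mdm2 and Cdkn1a, both p53 targets, differed from each other by 0.08 (-0.06 to 0.23), an interval that includes 0.

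Most other regulators of p53 stayed under 1.5-fold. Of 15 listed genes 13 passed the minimum, and 12 of these were under 1.5-fold. Past it, 1 (7.69%) was higher and 0 were lower, against 19.7% and 15.5% of all tested genes. The median log2 fold change of the 13 genes was 0.20, and -0.10 without the 2 genes of chromosome 1. The higher one was Hipk2, a kinase that acts on p53, with 478, 437 and 416 normalized counts in WT against 657, 656 and 694 in mutant NSCs (0.59, 0.45 to 0.73), on the 1.5-fold limit.

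The 40 other p53 targets, of which 39 passed the minimum, went both ways. Past 1.5-fold, 7 (17.9%) were higher and 11 (28.2%) were lower, against 19.7% and 15.5% of all tested genes, and their median log2 fold change was -0.02 (-0.09 without the 4 genes of chromosome 1, and -0.02 again with Pmaip1, at 0 reads in the mutant, set to its bound). Among the lower ones, Rprm, which codes for the G2 arrest protein reprimo, had 598, 629 and 626 normalized counts in WT against 255, 220 and 231 in mutant NSCs (-1.39, -1.57 to -1.21). The exonuclease gene Aen had 684 and 289 (-1.24, -1.41 to -1.07), and Pidd1, which codes for a death-domain protein, had 272 and 153 (-0.83, -1.06 to -0.59). Among the higher ones, Gadd45a, a stress-response gene, had 56.4, 83.6 and 68.7 in WT against 193, 161 and 179 in mutant NSCs (1.34, 1.03 to 1.65). The peptide transporter gene Tap1 had 156 and 268 (0.78, 0.56 to 1.00), and the thiamine transporter gene Slc19a2, on chromosome 1, had 270 and 426 (0.66, 0.49 to 0.83).

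**Figure D5:**
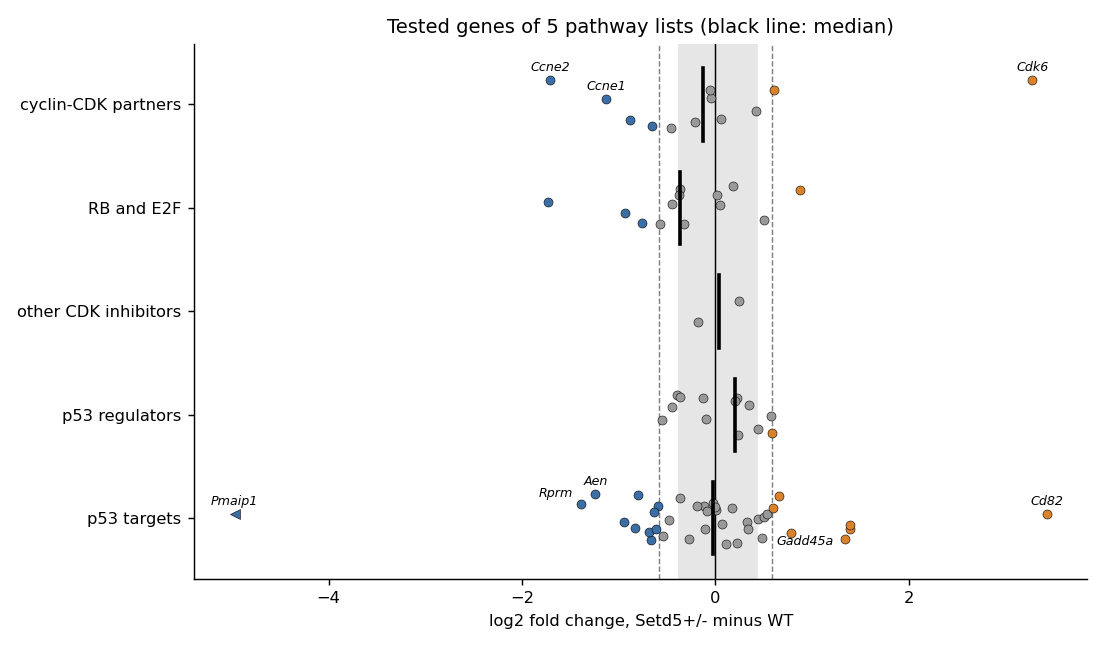
Log2 fold change (x axis, Setd5+/- minus WT) of each tested gene of 5 pathway lists, with list medians as black lines, the middle range of all tested genes in grey and the 1.5-fold limits dashed; blue points are lower and orange points higher past 1.5-fold. Cdk6 at 3.28 stands apart among the cyclin-CDK partners, p53 targets lie on both sides, and the triangle of Pmaip1 marks a bound set by 0 reads in mutant NSCs.

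Ordered by level per kb of exon, the 10 genes ranked differently in the libraries. The exon lengths were unions over all annotated transcripts, 21 for Ccnd3 and 1 for Cdkn2b, so levels of different genes are only roughly comparable. In WT NSCs Ccnd2 (869) and Ccnd1 (718) led, followed by Cdkn1a (350), Cdkn2a (261), Cdkn2c (228), Cdkn1b (218), Mdm2 (128), Trp53 (104), Cdkn2b (93.5) and Ccnd3 (40.4). Samples of the neighbours Cdkn2a, Cdkn2c and Cdkn1b in this order overlapped or touched, as did those of Trp53 and Cdkn2b. In Setd5+/- NSCs the inhibitors Cdkn1a (426) and Cdkn1b (412) led with overlapping samples, ahead of Ccnd1 (368), Cdkn2c (319) and Ccnd2 (186). Mdm2 (147) and Cdkn2b (141) overlapped, and Trp53 (77.9), Ccnd3 (18.3) and Cdkn2a (13.9) closed the order. Ccnd2 thus stood at rank 1 in the WT library and rank 5 in the mutant library, and Cdkn2a at ranks 4 and 10.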

How the data were processed

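RNA-seq of 6 samples, 3 labelled WT and 3 labelled Setd5+/-, was used. Libraries were made with a TruSeq RNA v2 kit, which does not mark strand. Per the submitters' processing notes, reads were trimmed with Trimmomatic, aligned with Bowtie2 to mm10 and normalized with DESeq2, whose versions, like the counting program and its strand setting, were not given in the sources used here. The values that the authors deposited are normalized and other than raw counts, namely counts divided by DESeq2 size factors, many with a lost decimal point. The table also holds the authors' own comparison, which was not used.

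Decimal points were restored by placing each value at a whole number of reads (1 read was worth 0.8273 to 0.8292 normalized counts in WT and 1.191 to 1.192 in Setd5+/- samples). In 12525 of 52438 genes the deposited mean was used to settle the place. For 34 of these more than 1 placing matched the mean, and the one with the fewest reads was taken. In the other 39913 genes the mean matched the restored values. In a test on simulated data 100% of 314628 values came back exactly. 672 genes without values and 0 columns of other samples were set aside.

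Fold changes are log2 ratios of mean normalized counts with a pseudocount of 1, over genes with a mean of at least 10, and genes at or past 1.5-fold are called. Counting intervals (95%) used a variance of 1.94 times the mean, as seen within genotypes, since each pair contributes both of its reads. For 0 reads the limit was 3 read pairs, or 2.38 normalized counts in Setd5+/- NSCs. Levels per kb used the union of exons of GENCODE M21 (GRCm38, the assembly of mm10). Copies were sought with BLAST+ 2.17.0 (at least 95% identity over 300 bp). As an alternative call, limma 3.58.1 in R 4.3.3 was run on log2(normalized count + 1), with adjusted p under 0.05. It compares the reads of 2 libraries, not the genotypes. The design had foreseen this as the main test only if the samples of a genotype had differed by more than sampling noise.

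The 10 genes, the lists and the rules were chosen with earlier results of these data known. Named genes were the 10 genes, Setd5, in each pathway list up to 3 genes in each direction with the largest change past 1.5-fold and a mean of at least 100, the 3 coding genes on each side of Cdkn2a and Cdkn2b, genes overlapping on exons and the most abundant marker of each list. Others were added after their values were seen, as partners or family members of a gene named, or as further markers, some of them at 0. Cop1 is listed under its older symbol Rfwd2.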

Additional observations from a re-analysis of the deposited data

How the results depend on the processing

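All 110 recomputed values of the 10 genes (11 settings each of pseudocount, scaling and samples left out) stayed within the counting interval of the reported value and kept their direction. Since the samples of a genotype are parts of 1 library, leaving 1 out could change little and says nothing of cultures. The count of these genes past 1.5-fold, 6 as reported, was 3 at 2-fold (Ccnd2, Ccnd3 and Cdkn2a), which 16.4% of all tested genes reached, and 5 to 6 with 1 sample left out, where Cdkn2b was the gene lost. The pathway genes past 1.5-fold numbered 29 of 79 tested as reported, where 35.2% of all tested genes were past it. At 2-fold they numbered 11 (16.4% of all tested genes). Where the whole interval had to be past 1.5-fold they numbered 16 (19.9% of all tested genes), and 26 to 31 with 1 sample left out. By limma (adjusted p under 0.05), which compares the reads of the libraries and also calls 61.3% of all tested genes, 10 of the 10 genes and 60 pathway genes were called, and the replicate block gave 10 and 60 again. Samples with the same number did not deviate together (correlations of 0.0049, 0.0015 and -0.0071), so the numbers do not pair them. Scaling to total reads moved all log2 fold changes by -0.04, the upper quartile by -0.01 and a median of 0 outside chromosome 1 by 0.04, and Cdkn2b passed under 1.5-fold with the first (0.55) and the second (0.58) and with a pseudocount of 5 (0.57). Depth limits Cdkn2a in Setd5+/- NSCs, at 41 reads, most of all.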

Other observations

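The genes of these paragraphs fall outside the naming rule and were chosen after their values were seen. Values are WT first, with the log2 fold change and its interval in parentheses. Some p53 targets changed more than those named in the report. Pmaip1, which codes for the BH3-only protein NOXA, had 87.9, 58.7 and 77.8 normalized counts in WT, from 271 reads, and 0 reads in all 3 mutant samples, which makes it at least 31.4-fold lower against the limit of 3 read pairs. The other BH3-only target, Bbc3 (PUMA), had 175 and 173, a log2 fold change of -0.02 (-0.26 to 0.23), and the pore protein gene Bax had 1494 and 926 (-0.69, -0.79 to -0.59). In the other direction, Cd82, a tetraspanin gene, had 12.4, 16.5 and 6.63 in WT against 124, 146 and 143 in mutant NSCs (log2 fold change 3.43, 2.84 to 4.02), and Perp, a desmosome gene, had 17.7 and 48.1 (1.39, 0.81 to 1.98).

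Among the E2F genes, E2f2 had 85.4, 86.9 and 98.5 normalized counts in WT against 19.1, 35.7 and 25 in mutant samples, a log2 fold change of -1.73 (-2.24 to -1.21), the most negative of its list at a mean under 100. E2f3 had 562 and 379 (-0.57, -0.72 to -0.41), just under 1.5-fold, and the repressors E2f7 and E2f8 had log2 fold changes of -0.45 (-0.81 to -0.09) and 0.18 (-0.05 to 0.41). Of the pocket proteins, Rbl1 (p107) had 295 and 417 (0.50, 0.33 to 0.67) beside the lower Rb1, and Rbl2 (p130) had 500 and 519 (0.05, -0.09 to 0.20).

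Values near the limit of 1.5-fold included Rfwd2, a ubiquitin ligase gene of p53 on chromosome 1, with 145 and 216 (0.58, 0.34 to 0.81), and Rchy1, another, with 485 and 331 (-0.55, -0.72 to -0.39).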
